A study of Saccharomyces cerevisiae SK1 with 8 samples.

Results

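The transcripts of 59 assembly factors of the large ribosomal subunit of budding yeast were followed across 8 RNA-seq libraries. They make up 59 of the 6663 genes counted. They were chosen by systematic gene name from known pre-60S factors, with earlier results of these data known. Shares of all tested genes set beside them therefore describe the list and do not test it. Polyadenylated RNA came from SK1 diploids (MATa/alpha) collected 3 h after dilution into YEPD at 30 °C, in 4 groups of 2 biological replicates. Cells of every group carried at his3 a pTetO7.1-altPus1-3V5 construct, which encodes a truncated, 3V5-tagged form of the RNA-modifying enzyme Pus1. They also carried at ura3 the repressors TetR-Tup1 (from pRNR2) and TetR (from pTetO7.1). The groups called WT had no other labelled change and the groups called pus1Δ had the native PUS1 gene replaced (pus1::KanMX). Each genotype received anhydrotetracycline (aTC), the drug that releases the tet promoter, or the vehicle DMSO. No strain without the construct was analysed here, so an effect of aTC itself and an effect of the truncated protein cannot be told apart within a genotype. In WT cells, aTC adds the truncated form to the native protein. In pus1Δ cells the truncated form is the only PUS1 product that the labels describe.

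Large subunit assembly factors are proteins that bind the precursor of the large ribosomal subunit (the pre-60S particle) in the nucleolus, nucleus and cytoplasm and are not part of the finished ribosome. They fold and trim the ribosomal RNA (rRNA) precursor, hold places for late ribosomal proteins and carry the particle out of the nucleus. In growing yeast their genes are known to be expressed together with those of small subunit assembly, and many carry upstream of the coding sequence a pair of shared DNA motifs, PAC and RRPE.

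The letters of both motifs are shown first because most of the 59 genes share them. The 250 bases before each coding start were read from the RefSeq R64 genome, which is the S288C reference strain and not the SK1 strain sequenced here. The searched letters were GATGAG for the PAC core, on both strands, and AAAATTTT for the RRPE core, which is its own reverse complement; the letters of these cores do not overlap each other. Upstream of 51 of the 59 genes (86.4%) there was a PAC core, compared with 17.0% of the 6001 upstream regions of the genome. An RRPE core also preceded 51 (86.4%), compared with 8.65% of all regions. Both cores preceded 43 of the 59 (72.9%, against 4.08% of all) and none of the 59 lacked both, whereas 78.4% of all regions did. The nearest PAC core lay at a median of 116 bases before the coding start and the nearest RRPE core at a median of 139 bases. The following stretches are written 5′ to 3′ in the direction of the gene, with the letters of cores printed whole in capitals (CTCATC is the PAC core on the other strand).
RBP95: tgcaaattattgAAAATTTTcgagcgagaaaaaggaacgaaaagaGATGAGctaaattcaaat
CGR1: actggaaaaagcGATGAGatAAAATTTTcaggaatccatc
EBP2: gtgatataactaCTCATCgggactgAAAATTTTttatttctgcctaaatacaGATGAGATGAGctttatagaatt
RRS1: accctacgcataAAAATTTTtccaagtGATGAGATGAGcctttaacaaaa
NOP7: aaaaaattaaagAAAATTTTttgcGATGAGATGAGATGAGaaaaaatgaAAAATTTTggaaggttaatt
BUD20: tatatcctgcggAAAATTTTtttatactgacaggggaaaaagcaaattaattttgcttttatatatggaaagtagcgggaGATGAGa
FPR4: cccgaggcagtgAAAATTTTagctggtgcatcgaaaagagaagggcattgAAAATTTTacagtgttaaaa
URB1: tcagcaataaagCTCATCgcaaagaatagt
In R64 they lie at RBP95 chr3:143499-143561 (plus strand), CGR1 chr7:439920-439959 (plus strand), EBP2 chr11:125622-125696 (plus strand), RRS1 chr15:868192-868241 (plus strand), NOP7 chr7:695264-695332 (plus strand), BUD20 chr12:282517-282603 (minus strand), FPR4 chr12:1030700-1030769 (plus strand) and URB1 chr11:416997-417026 (minus strand). RBP95, CGR1 and EBP2 are shown because their transcripts differed most between groups. RRS1 and NOP7 are shown because their PAC cores overlap each other in tandem. BUD20 is shown because it alone of the 59 passed the test for aTC in pus1Δ cells. Tandem PAC cores also lie in the EBP2 stretch. The 60 bases next to each coding start are not printed. BUD20 has 2 PAC cores, and the nearer one, 62 bases before the start, overlaps the core in capitals and is cut off. The last printed letter of BUD20 belongs to that cut core. FPR4 has a pair of RRPE cores and no PAC core, and URB1, whose transcript differed least between pus1Δ and WT in aTC, has a PAC core and no RRPE core. NOP53, NSA1, SPB1, RIX1, IPI3, IPI1 and FPR3 also had no PAC core in the window. URB2, NOP4, MAK5, DBP6, DBP7, RRP1 and SSF1 had no RRPE core in it. In the annotation used for counting, which the file headers call MvO_v1 without naming a genome build, the counted intervals lie on chromosome 3 at 157702 to 158574 for RBP95, on chromosome 7 at 442692 to 443054 for CGR1, on chromosome 11 at 132781 to 134088 for EBP2 and on chromosome 12 at 262809 to 263309 for BUD20. The presence of the motif letters is a description and was not tested for an effect.

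The libraries held 51331492 to 61960514 counted reads, of which the 59 genes took 1.18% to 1.58%. Each of the 59 had at least 945 reads in every library, and all of them were among the 5932 genes that passed the filter on low counts. PUS1 counts went with the labels: 2 and 4 reads in the pus1Δ DMSO libraries and 11004 to 68028 in the other 6. Markers of other yeast cell states were low: the median gene of 15 haploid-specific genes had a mean of 6.92 TPM (a count divided by gene length, then by the library's total of such values) and that of 15 meiotic genes 3.41 TPM, against 143 TPM for the 59 factors. Both lists were uneven. The haploid genes STE3, FUS3 and MF(ALPHA)1 had 3 to 26 reads a library, whereas AXL1 had 1662 to 2268 and FAR1 1406 to 1972. Among the meiotic genes, DMC1 had 32 to 62 reads a library and SMK1 1415 to 1866. No gene of either list was at 0. Each list summed to between 85.5 and 110.05 TPM in every library. In pus1Δ against WT in aTC, 2 of the 15 haploid-specific genes rose (median 0.24), as did 2 of the 15 meiotic genes (median 0.15), by the edgeR test described below, which called 5.5% of all tested genes higher.

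On the TPM scale, on which levels can be compared between genes, TIF6 had the highest level, 660 ± 34.4 TPM (SD over 8 libraries). TIF6 keeps the unfinished large subunit from joining the small one. It was followed by NOG1, a GTPase that stays on the particle from nucleolus to cytoplasm, at 421 ± 29.8 TPM, and by MRT4, which holds the place of the stalk protein P0, at 396 ± 29.3 TPM. The lowest levels were those of SSF2 (45.8 ± 3.75 TPM), RRP14 (52.6 ± 12.6 TPM) and IPI1 (55.9 ± 4.98 TPM), and the spread of RRP14 covers the levels of the other two. SSF2 is the less abundant of the near-identical pair SSF1 and SSF2. Their R64 coding sequences are 92.1% identical over 1362 aligned bases with identical runs of up to 92 bases, and since only uniquely aligned reads were counted, their values are uncertain. The paralogous prolyl isomerases FPR3 and FPR4 are 67.55% identical with no identical run above 15 bases. NOP4, RRP15, RRP14, HAS1 and REI1 overlap another counted gene, so their counts are uncertain as well. The counted interval of NOG2 (1983 bases) is longer than its R64 coding sequence (1461 bases), and its R64 intron of 532 bases holds the small nucleolar RNA gene SNR191, so reads of either kind could not be told apart.

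For most of the 59 transcripts the group mean was lowest in pus1Δ aTC, next in pus1Δ DMSO and higher in both WT groups. Values compared between libraries are CPM, a gene's reads per 1000000 reads of the library, after scaling of the library sizes with edgeR's TMM factors. The summed level of the 59 was 8502 and 8939 TPM in the pus1Δ aTC libraries, 10040 and 10019 TPM in pus1Δ DMSO, 11728 and 9612 TPM in WT aTC, and 11000 and 10287 TPM in WT DMSO. The pus1Δ aTC libraries were thus below the other 6, while the WT aTC replicates spanned the values of the DMSO groups. As group means the sums were 8721 ± 309 TPM (SD, n = 2) in pus1Δ aTC, 10029 ± 14.6 in pus1Δ DMSO, 10670 ± 1496 in WT aTC and 10643 ± 505 in WT DMSO. The pus1Δ aTC mean was 18.1% below WT DMSO on this scale and 21.6% below it on TMM-scaled CPM, and the pus1Δ DMSO mean was 5.77% and 10.7% below it. In bulk RNA, fewer cells that express these genes and less RNA per cell cannot be told apart.

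**Figure D1:**
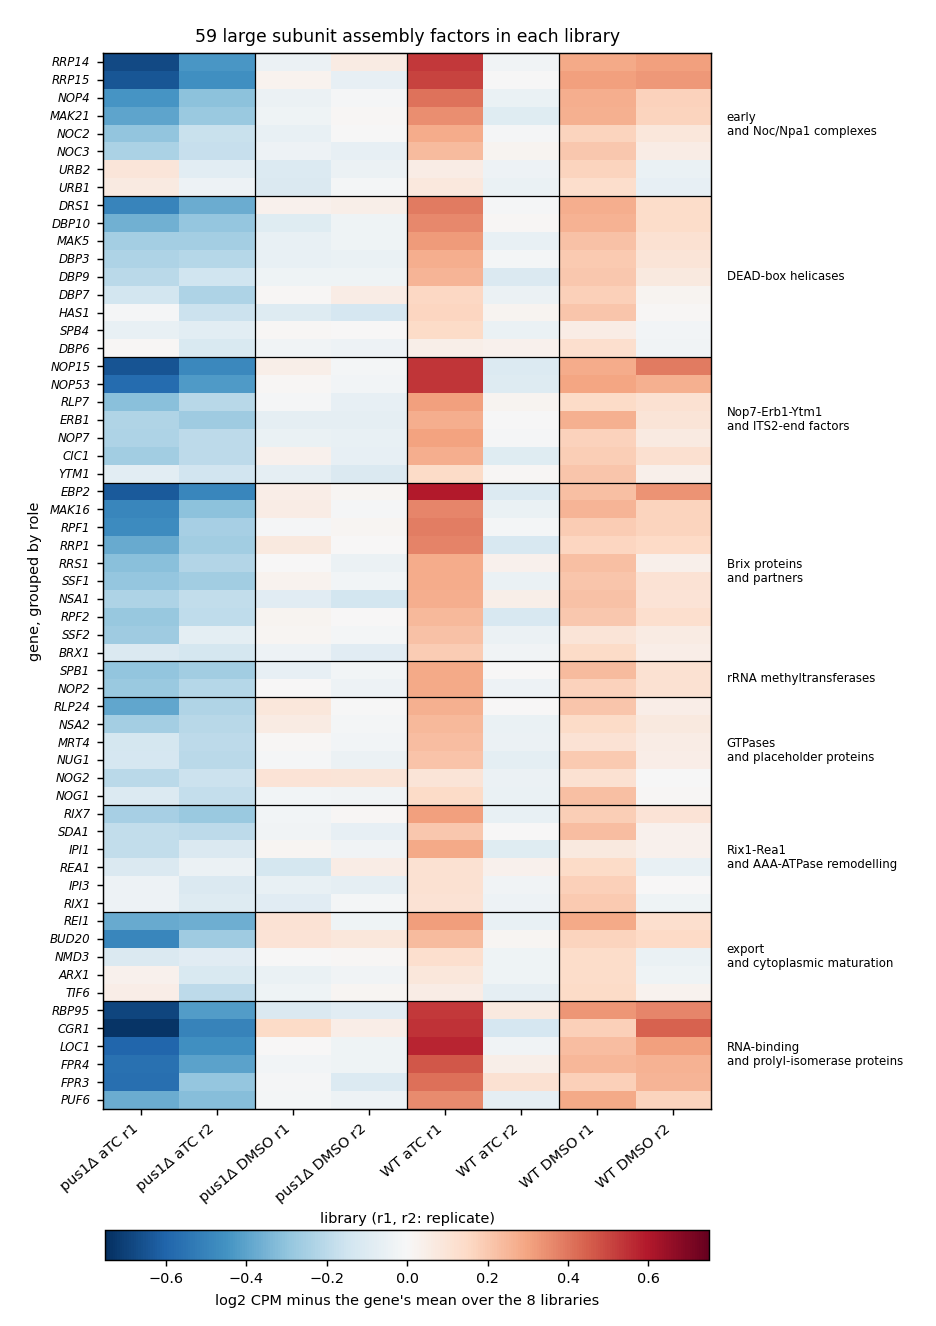
Heat map of the 59 genes (rows, grouped by role) in 8 libraries (columns), coloured by log2 CPM minus the gene's mean over the libraries. The pus1Δ aTC columns are blue for most genes and WT aTC replicate 1 is the reddest column; URB1, URB2, TIF6 and ARX1 show little colour.

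Gene by gene, both pus1Δ aTC libraries were the lowest of the 8 for 49 of the 59 genes, an order that 14.9% of all tested genes showed. The group mean was lowest in pus1Δ aTC for 56 of the 59 (32.3% of all tested genes), and for 55 it was lowest in pus1Δ aTC, next in pus1Δ DMSO and higher in both WT groups (18.9% of all). With each gene centred on its own mean, the median of the 59 was −0.26 and −0.21 (log2 CPM) in the pus1Δ aTC replicates and −0.01 and −0.02 in pus1Δ DMSO. It was 0.27 and −0.04 in the WT aTC replicates and 0.20 and 0.10 in WT DMSO. The single highest library was WT aTC replicate 1 for 44 genes and WT DMSO replicate 1 for 15. The replicates within the pus1Δ groups were therefore closer to each other than those within the WT groups.

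The spread within WT aTC enters every comparison through the shared error. All 59 genes were higher in WT aTC replicate 1 than in replicate 2, by a median of 0.29 and a range of 0.02 to 0.70 on the log2 scale, whereas the median absolute difference of all tested genes between these libraries was 0.094. Genes of small subunit assembly moved with them (65 of 67 higher in replicate 1, median 0.29), as did 31 of 32 other pre-60S factors (median 0.27). Between the WT DMSO replicates, 50 of the 59 were higher in replicate 1, with a median difference of 0.10. In pus1Δ the medians were −0.05 with aTC and 0.01 with DMSO. The cause of the difference between the WT aTC replicates was not tested.

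The largest contrast was pus1Δ against WT in aTC, which sets cells with only the truncated form against cells that also have native Pus1. Of the 59 factors, 38 fell and none rose at an adjusted p under 0.05 in edgeR's quasi-likelihood test with Benjamini-Hochberg adjustment over all 5932 genes. By the same rule 8.13% of all tested genes were called lower. The log2 fold changes of the 59 ranged from −0.87 to −0.00092 with a median of −0.37, against a median of all tested genes of 0.0050. Both pus1Δ libraries were below both WT libraries for 54 of the 59 (27.9% of all tested genes), the exceptions being RIX1, ARX1, TIF6, URB2 and URB1. At an unadjusted p under 0.05, 49 were lower (17.2% of all genes), DESeq2 called 45 lower (11% of all genes) and edgeR on these 4 libraries alone called 36 (4.73%). The count rests on single libraries. All calls were lost without pus1Δ aTC replicate 1, when few genes of any kind were called. Fewer factors were called without WT aTC replicate 1 or without pus1Δ DMSO replicate 2. The median moved from −0.21 without WT aTC replicate 1 to −0.51 without WT aTC replicate 2. The p-values measure the spread between labelled biological replicates, of which there were 2 a group.

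**Figure D2:**
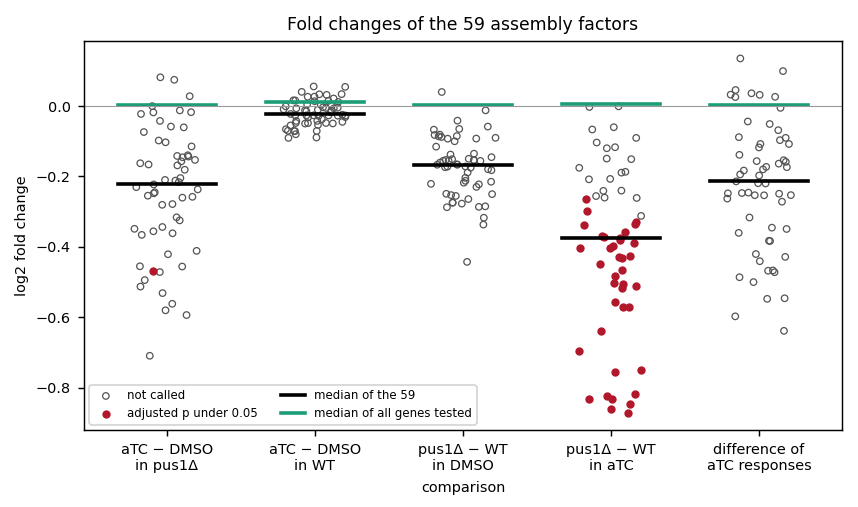
Log2 fold change (y axis) of each of the 59 genes in 4 pairwise comparisons and in the difference of the aTC responses (x axis); red points passed an adjusted p under 0.05, black bars mark the median of the 59 and green bars that of all tested genes. There are 38 red points for pus1Δ against WT in aTC and 1 for aTC in pus1Δ, and the WT points lie between −0.09 and 0.06.

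RNA-binding proteins and prolyl isomerases had the lowest median of the 9 roles in this contrast, −0.79, with 6 of 6 called lower. RBP95 (YCR016W), an RNA-binding protein of pre-60S particles, had 32.9 and 39.7 CPM in the pus1Δ aTC replicates, 49.4 and 50.1 in pus1Δ DMSO, 76.7 and 55.9 in WT aTC, and 66.7 and 68.5 in WT DMSO. The pus1Δ aTC values were the lowest and the pus1Δ DMSO values lay below all 4 WT values. The fall in aTC was 0.87 on the log2 scale (SE 0.127, 1.83-fold, edgeR quasi-likelihood adjusted p 0.0135). CGR1 (YGL029W), needed for processing of the large subunit rRNA, had 17.0 and 19.97 CPM in pus1Δ aTC, 31.2 and 29.2 in pus1Δ DMSO, 41.1 and 25.9 in WT aTC, and 31.998 and 38.5 in WT DMSO. Here the pus1Δ DMSO values lay inside the WT range, and the WT aTC replicates lay far apart. CGR1 fell by 0.86 (SE 0.176, 1.82-fold, edgeR adjusted p 0.0171).

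LOC1 (YFR001W), a nucleolar protein that also helps localise ASH1 mRNA, had 52.4 and 57.5 CPM in pus1Δ aTC, 79.4 and 77.3 in pus1Δ DMSO, 117.8 and 77.6 in WT aTC, and 92.9 and 98.1 in WT DMSO. It fell by 0.83 (SE 0.144, 1.78-fold, edgeR adjusted p 0.015). WT aTC replicate 2 was as low as the pus1Δ DMSO libraries, and only the pus1Δ aTC libraries stood below all others. The prolyl isomerase FPR4 (YLR449W), which also acts on histones, had 175 and 196 CPM in pus1Δ aTC, 256 and 254 in pus1Δ DMSO, 357 and 267 in WT aTC, and 307 and 310 in WT DMSO. Its fall of 0.75 (SE 0.108, 1.68-fold) had the smallest adjusted p of the 59 in the edgeR test, 0.0134. FPR3, its paralog, fell by 0.69 (1.62-fold, edgeR adjusted p 0.0144), from 451 and 366 CPM in WT to 228 and 277 CPM. PUF6, a partner of LOC1 in mRNA localisation, fell by 0.50. In every one of these 4 genes the aTC libraries of pus1Δ were below each of the other 6.

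**Figure D3:**
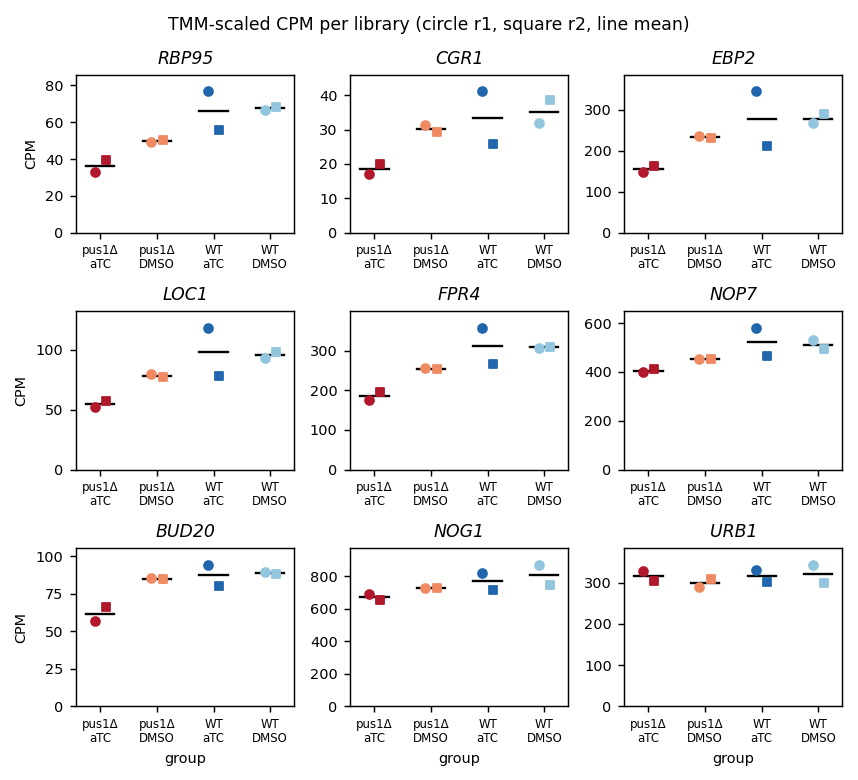
TMM-scaled CPM (y axis, from 0) of 9 of the genes in each library by group (x axis), with circles for replicate 1, squares for replicate 2 and a line at the group mean. In 8 panels both pus1Δ aTC points are the lowest, by little for NOG1; the URB1 groups overlap between 290 and 343 CPM.

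Brix-domain proteins and their partners, which bind and shape the early particle, had 7 of 10 members called lower (median −0.41). EBP2 (YKL172W), a partner of the Brix protein BRX1 and of RRS1, had 148 and 163 CPM in pus1Δ aTC, 237 and 231 in pus1Δ DMSO, 345 and 213 in WT aTC, and 267 and 289 in WT DMSO. Its WT aTC replicates differed more than the DMSO groups did, with replicate 2 below both pus1Δ DMSO libraries. EBP2 fell by 0.85 (SE 0.162, 1.80-fold, edgeR adjusted p 0.0161). RRS1 works with the Brix protein RPF2 to bring the 5S rRNA into the particle. RRS1 had 90.1 and 95.9 CPM in pus1Δ aTC, 112 and 109 in pus1Δ DMSO, 136 and 114 in WT aTC, and 130.5 and 115 in WT DMSO, and fell by 0.43 (SE 0.085, edgeR adjusted p 0.0168). RPF2 had a log2 fold change of −0.31 that was not called (edgeR adjusted p 0.0506). MAK16 and NSA1 belong to the same early module as the Brix protein RPF1. MAK16 fell by 0.57, RPF1 by 0.56 and NSA1 by 0.37. SSF1 fell by 0.40 (edgeR adjusted p 0.0206) and its near copy SSF2 had −0.26 (0.0714), both of them uncertain because of their shared sequence. BRX1 itself had the smallest change of the group, −0.21 (edgeR adjusted p 0.0737).

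In the Nop7-Erb1-Ytm1 complex, which is needed to process the 27S rRNA precursor, and among the proteins at the ends of the ITS2 spacer, 6 of 7 members fell (median −0.39). NOP15, which binds ITS2, had 76.5 and 85.6 CPM in pus1Δ aTC, 124 and 119 in pus1Δ DMSO, 174 and 112 in WT aTC, and 145 and 157 in WT DMSO. NOP15 fell by 0.82 (SE 0.153, 1.76-fold, edgeR adjusted p 0.0152), and NOP53, which brings the exosome to the ITS2 end, fell by 0.75. These were the strongest changes of the group, and in both genes WT aTC replicate 2 lay below the pus1Δ DMSO libraries. NOP7 had 400.4 and 410.3 CPM in pus1Δ aTC, 454 and 453 in pus1Δ DMSO, 579 and 467 in WT aTC, and 531 and 493 in WT DMSO, and fell by 0.37 (SE 0.0856, edgeR adjusted p 0.023). ERB1 had 282 and 274 CPM in pus1Δ aTC, 315 and 316 in pus1Δ DMSO, 398 and 330 in WT aTC, and 397 and 353 in WT DMSO, and fell by 0.39 (SE 0.0844, edgeR adjusted p 0.0203). YTM1, which joins NOP7 and ERB1 in the complex, had −0.19 and was not called (edgeR adjusted p 0.0909); its difference from the other two was not tested. RLP7 and CIC1, both bound near ITS2, fell by 0.43 and 0.33.

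Among the early factors and the Noc and Npa1 complexes, 6 of 8 fell (median −0.43), with a wide range from RRP14 to URB1. RRP14 and RRP15, nucleolar proteins of early rRNA processing, fell by 0.83 (SE 0.144, edgeR adjusted p 0.015) and 0.82 (SE 0.132, edgeR adjusted p 0.015). RRP14 had 38.03 and 44.8 CPM in pus1Δ aTC and 87.8 and 59.5 in WT aTC. MAK21 (Noc1), NOC2 and NOC3, which pair in turn on maturing particles, fell by 0.48, 0.37 and 0.34, and the RNA-binding protein NOP4 fell by 0.57. URB1 and URB2, scaffold proteins of the Npa1 complex, had differences near 0. URB1 had 327 and 304 CPM in pus1Δ aTC, 290 and 309.5 in pus1Δ DMSO, 330 and 302 in WT aTC, and 342.5 and 300.1 in WT DMSO. The groups overlapped, and the log2 fold changes were −0.00092 for URB1 and −0.0027 for URB2, with SEs of 0.0753 and 0.0803. DBP6, a helicase of the same complex, had −0.09 (edgeR adjusted p 0.347).

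DEAD-box helicases, which unwind rRNA during folding, had 4 of 9 members called lower (median −0.26). DRS1 had 180 and 196 CPM in pus1Δ aTC, 259 and 261 in pus1Δ DMSO, 333 and 252 in WT aTC, and 307 and 279 in WT DMSO, and fell by 0.64 (SE 0.107, 1.56-fold, edgeR adjusted p 0.015). The pus1Δ aTC libraries stood apart from all others, and the other 6 libraries overlapped between groups. DBP10 fell by 0.52, MAK5 by 0.40 and DBP3 by 0.36. HAS1, SPB4 and DBP6 had −0.18, −0.12 and −0.09 and none of them was called. The rRNA methyltransferases SPB1 and NOP2, which modify the large subunit rRNA, fell by 0.43 and 0.38.

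Among GTPases and placeholder proteins 3 of 6 fell (median −0.25). RLP24, which holds the place of the ribosomal protein L24, fell by 0.45, NSA2 by 0.33 and MRT4 by 0.26 with an edgeR adjusted p of 0.049. NOG1 had 692 and 656 CPM in pus1Δ aTC, 730.3 and 729.5 in pus1Δ DMSO, 820.1 and 717 in WT aTC, and 869 and 745.5 in WT DMSO. Its pus1Δ aTC values were the lowest of the 8, but its log2 fold change of −0.19 (SE 0.0811) was not called (edgeR adjusted p 0.135). NOG2, a GTPase that leaves the particle before export, had −0.21 (edgeR adjusted p 0.0501).

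The medians nearest 0 were those of the later steps, a difference between roles that was not tested. Of the AAA-ATPases and the Rix1-Rea1 group, which strip factors from the nuclear particle, 2 of 6 fell (median −0.20): RIX7 by 0.40 and SDA1 by 0.30. REA1, RIX1, IPI1 and IPI3 had −0.10 to −0.26 and were not called. Of the export and cytoplasmic factors, 2 of 5 fell (median −0.15). REI1, which helps release ARX1 in the cytoplasm, fell by 0.51, and the export factor BUD20 fell by 0.51 (SE 0.084, edgeR adjusted p 0.015). The export adaptor NMD3 had −0.15, the export factor ARX1 −0.07 and TIF6 −0.06, none of them called. TIF6 had 458 and 386 CPM in pus1Δ aTC, 433 and 447 in pus1Δ DMSO, 458 and 422 in WT aTC, and 488 and 450 in WT DMSO, with overlapping groups.

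Within pus1Δ, aTC against DMSO covers both the truncated form and aTC itself, which cannot be told apart, where the native protein is missing. It had a median log2 fold change of −0.22 over the 59 factors (range −0.71 to 0.08, 56 negative), against 0.0038 over all tested genes, but 1 factor fell and none rose in the edgeR test. By that rule 0.152% of all tested genes were called lower. Of 32 other pre-60S factors 1 was called lower, PXR1, with −0.62 (edgeR adjusted p 0.0446). The called gene of the 59 was BUD20 (YLR074C). It had 56.9 and 66.1 CPM with aTC and 85.6 and 84.5 with DMSO. In WT it had 94.1 and 80.5 CPM with aTC and 89.6 and 88.3 with DMSO. Its pus1Δ DMSO values lay within the WT range, so the aTC libraries of pus1Δ stood apart from the other 6. BUD20 fell by 0.47 (SE 0.084, 1.38-fold, edgeR adjusted p 0.0416). The call was lost without pus1Δ aTC replicate 1, pus1Δ DMSO replicate 1 or pus1Δ DMSO replicate 2, with adjusted p values of 0.254 to 0.353.

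For 49 of the 59 factors both aTC libraries of pus1Δ were below both DMSO libraries (28.7% of all tested genes). At an unadjusted p under 0.05, 33 were lower (12.1% of all genes) and none higher. DESeq2 called 17 lower (4.2% of all genes), and edgeR on the 4 pus1Δ libraries alone called 37 (7.99%). The count in the fit of all libraries rose when either WT aTC replicate was left out. Its call was lost without pus1Δ aTC replicate 1 or either pus1Δ DMSO replicate. Over the fits with 1 library left out, the median lay between −0.28 and −0.20. The 5 factors with the lowest log2 fold changes were not called. CGR1 had −0.71 (SE 0.176, edgeR adjusted p 0.0763), EBP2 −0.59 (0.0885), NOP15 −0.58 (0.0853), RRP14 −0.56 (0.0797) and RRP15 −0.53 (0.0763). DRS1 and NOG2 had −0.47 and −0.28, each with an edgeR adjusted p of 0.0694, and FPR4 had −0.46 (0.07). By role, the median was −0.46 for RNA-binding and isomerase proteins and −0.26 for Brix proteins and for early factors, but −0.10 for export factors and −0.09 for the Rix1-Rea1 group. At the upper end, URB2 had 0.08, URB1 0.07 and HAS1 0.03. These values share the pus1Δ aTC libraries with the contrast described first and are no independent record of it.

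In DMSO, where the truncated form is not induced, pus1Δ against WT had a median of −0.17 (range −0.44 to 0.04, 58 negative) and no factor was called in edgeR (0.0843% of all tested genes were called lower). At an unadjusted p under 0.05, 16 were lower and none higher (7.67% of all genes). DESeq2 called 2 lower (1.08% of all genes) and edgeR on the 4 DMSO libraries alone called 17 (2.54%). Both pus1Δ libraries were below both WT libraries for 49 of the 59 (29.4% of all genes). The count was higher without WT aTC replicate 1 or replicate 2, whose spread enters the shared error. The median was −0.16 in each of these fits. NSA1 had the smallest adjusted p (0.15 in edgeR): 138 and 132 CPM in pus1Δ and 170 and 157 CPM in WT, a log2 fold change of −0.27. RBP95 had the lowest value, −0.44 (SE 0.125, edgeR adjusted p 0.16), followed by RRP15 with −0.34 and NOP15 with −0.32. NOG2 had 0.04, SPB4 −0.01 and BUD20 −0.07 (edgeR adjusted p 0.708). BUD20 thus differed between the pus1Δ groups and had little difference between the DMSO groups, whereas RBP95 had similar values in both contrasts (−0.45 and −0.44).

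In WT, aTC against DMSO had a median of −0.02 with a range of −0.09 to 0.06, and none of the 59 was called by edgeR (0.118% of all tested genes were called lower). None was lower or higher at an unadjusted p under 0.05 (2.92% of all genes were lower), in DESeq2 (0.438%) or in edgeR on the 4 WT libraries alone (0.0848%). No factor had both aTC libraries below both DMSO libraries (13.3% of all genes). For 44 factors WT aTC replicate 1 was the highest of these 4 libraries and replicate 2 the lowest, which places both DMSO libraries between them. The median was −0.16 without WT aTC replicate 1, when a few factors were called, and 0.12 without replicate 2. A p that misses the threshold does not show that the WT groups were equal.

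The aTC response of pus1Δ minus that of WT asks directly whether the responses differ. Its median was −0.21 (range −0.64 to 0.13), and none of the 59 was called by edgeR, where 0% of all tested genes were called lower; DESeq2 also called none of the 59 (0% of all genes). At an unadjusted p under 0.05, 19 of the 59 were lower and none higher (5.18% of all genes). CGR1 had the lowest value, −0.64 (SE 0.245, edgeR adjusted p 0.66). Without WT aTC replicate 2, 28 of the 59 were called, as were 175 of 5959 genes, and the median was −0.35. Without WT aTC replicate 1 none was called and the median was −0.047. A response to aTC in pus1Δ that differs from that in WT was thus not shown with all libraries in the fit.

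Some other gene groups of ribosome production moved alongside in pus1Δ against WT in aTC, where 8.13% of all tested genes were called lower and 5.5% higher. Of 32 other pre-60S factors, 17 fell and 1 rose (median −0.33), with PXR1 at −0.84 and NOP16 at −0.71. Of 67 genes of small subunit assembly 41 fell (median −0.33), RRT14 and BUD22 by 0.75 each. Of 8 genes of RNA polymerase I, which makes the rRNA precursor, including its initiation factor RRN3, 3 were called lower (median −0.17), led by RPA34 with −0.45. The 81 large subunit ribosomal protein genes had 13 called lower and 3 higher and a median of −0.12. The share of them called was 19.8%, nearer to the 13.6% of all tested genes than to the 64.4% of the 59 factors. In aTC against DMSO within pus1Δ their median was −0.01, against −0.22 for the 59 assembly factors, a difference between lists that was not tested.

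Most genes of the general stress response went the other way between pus1Δ and WT, though not library by library. Of 20 such genes, 12 rose and none fell in pus1Δ against WT in aTC (median 0.30), against 5.5% of all tested genes called higher. HSP78, a mitochondrial chaperone, had 0.77 and PNC1, a nicotinamidase, had 0.53. CTT1, HSP12, HSP26, HSP42, SSA4 and DDR2 were among those not called, the last 2 with negative values. In aTC against DMSO within pus1Δ none of the 20 was called (median 0.13), against 0.506% of all tested genes. Their summed level was 780 and 850 TPM in pus1Δ aTC, 695 and 689 in pus1Δ DMSO, 577 and 621 in WT aTC, and 525 and 583 in WT DMSO. The group in which this sum was highest, pus1Δ aTC, was the group in which the sum of the 59 factors was lowest. In DMSO, HSP78 alone of the 20 was called higher in pus1Δ than in WT (0.71, edgeR adjusted p 0.00636), as were 0.135% of all tested genes. The part of the stress genes' change in the values of the assembly factors was not tested.

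**Figure D4:**
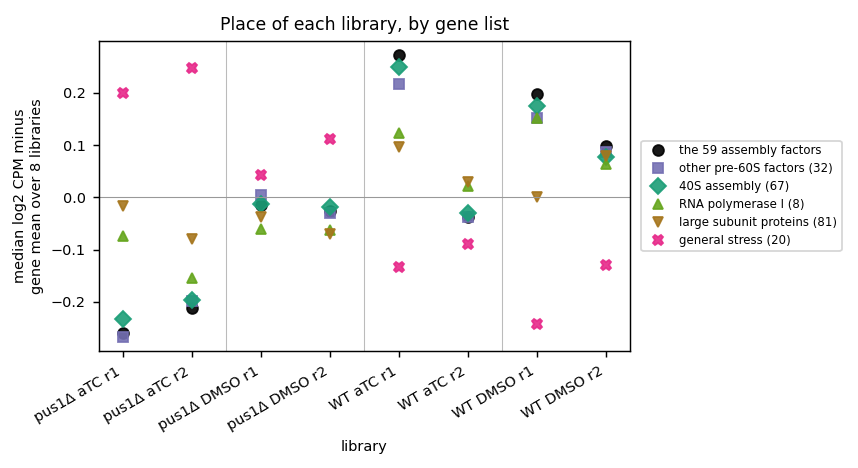
Median log2 CPM minus the gene's mean over 8 libraries (y axis) for 6 gene lists in each library (x axis). The 59 factors run from −0.26 in pus1Δ aTC replicate 1 to 0.27 in WT aTC replicate 1. The other pre-60S and small subunit lists lie beside them. The stress list runs from 0.25 in pus1Δ aTC replicate 2 to −0.24 in WT DMSO replicate 1.

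The members also differed by length and by how closely they followed the group. In pus1Δ against WT in aTC, the 30 factors of up to 1518 counted bases had a median log2 fold change of −0.46. The 29 longer ones had −0.30, and all tested genes split at the same length had medians of −0.00019 and 0.013. Across the 59 genes, Spearman's rank correlation of length with log2 fold change was 0.37 in this contrast and 0.42 in aTC against DMSO within pus1Δ, against 0.02 and 0.12 across all tested genes. Genes are not independent replicates, longer genes have more reads and all points share the same libraries, so this is a description. The correlation of each factor with the standardised mean of the 59 over the 8 libraries had a median of 0.959. Of the 59, 52 were above 0.8, as were 12.1% of all tested genes with that mean. Each factor is part of that mean and the 59 are among all tested genes, so part of this closeness was built in. The lowest correlations were those of URB2 (0.41), URB1 (0.412), TIF6 (0.636), DBP6 (0.688), ARX1 (0.693), REA1 (0.726) and HAS1 (0.785).

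**Figure D5:**
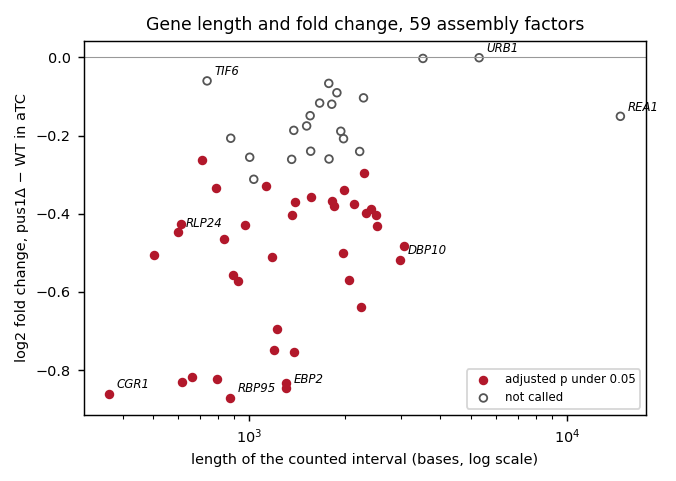
Log2 fold change of pus1Δ against WT in aTC (y axis) against the length of the counted interval in bases (x axis, log scale) for the 59 genes; filled points passed an adjusted p under 0.05. CGR1, RBP95 and EBP2, between −0.87 and −0.85, are among the shorter genes, and the longest gene, REA1, had −0.15.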

How the data were processed

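RNA-seq of polyadenylated RNA from 8 yeast libraries was analysed. Per the labels' protocols, libraries were made with a directional kit. Per the submitters' processing notes, reads were aligned with STAR; its version and the genome build are not given in the sources used here, and the file headers name the annotation only as MvO_v1. The deposited tables hold raw counts. Per the file headers, featureCounts 2.0.1 made them from uniquely aligned reads with no strand or overlap option; reads shared by overlapping genes are dropped and antisense reads are counted.

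From these counts, edgeR 4.0.16 (R 4.3.3) fitted 1 mean per group over all 8 libraries by quasi-likelihood, with TMM scaling and filterByExpr (5932 of 6663 genes kept), and adjusted p-values over all of them by Benjamini-Hochberg. A gene is called at an adjusted p under 0.05. The SE is the size of a log2 fold change over the root of its F statistic. The scripts were tested on simulated data. TPM used the deposited Length column. Depth was 51331492 to 61960514 counts, the common biological coefficient of variation was 5.44%, and precision is set by 2 replicates a group. Alternatives were DESeq2 1.42.0, its size factors within edgeR, no filter, the compared groups alone, a replicate block and leaving out each library. Replicate numbers come from the labels, which state no shared day.

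The members and gene lists were chosen with earlier results of these data known. Genes are named by rule: the called and extreme members of each comparison, up to 10 and 5 at each end, 13 fixed members, the first and last of each role, the highest and lowest 3 by TPM, and up to 4 called genes of other lists. NMD3, NSA2, SDA1, RLP7, CIC1, MAK21, NOC2, NOC3, MAK5, DBP3, RPF1, RPF2, SPB4, MAK16 and NOP4 fall partly outside it. The 7 genes of low correlation do as well, and all of these were chosen with their values known. Promoters and symbols came from RefSeq R64, with which 5931 listed genes matched by systematic name; YLR106C is REA1 there. Motif windows were 250 bases.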

Additional observations from a re-analysis of the deposited data

How the results depend on the processing

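No alternative reversed a call, and 67 of 69 medians over the 59 factors kept their sign; the exceptions were aTC in WT with WT DMSO replicate 1 or WT aTC replicate 2 left out. For aTC in pus1Δ the count of factors called was 1 with all libraries, 17 in DESeq2, 37 on the compared groups alone and 0 to 33 when leaving out 1 library (medians −0.28 to −0.20). For pus1Δ against WT in DMSO it was 0, with 2 in DESeq2, 17 on the compared groups alone and 0 to 9 when leaving out 1 library (−0.23 to −0.12). For pus1Δ against WT in aTC it was 38, and 0 to 49 when leaving out 1 library (−0.51 to −0.21). For aTC in WT it was 0, and 0 to 2 (−0.16 to 0.12), and for the difference of the aTC responses 0, and 0 to 28 (−0.35 to −0.047). Why the counts depend on single libraries was not tested.

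With the replicate number as a block, the medians of the 59 were −0.221 for aTC in pus1Δ and −0.024 for aTC in WT. They were −0.166 and −0.371 for pus1Δ against WT in DMSO and in aTC, and −0.212 for the difference of the responses. In the main fit these medians were −0.223, −0.023, −0.167, −0.374 and −0.214. Deviations of libraries with the same number correlated between −0.16 and 0.14 over all tested genes. With 2 libraries a group, these values cannot show whether libraries of the same number shared a day or batch. The summed level lay 21.6% (pus1Δ aTC) and 10.7% (pus1Δ DMSO) below WT DMSO by CPM in place of TPM. With the longer letters GCGATGAG and GAAAATTTT, 54.2% of the 59 had PAC, 55.9% RRPE and 27.1% both, against 3.83%, 4.57% and 1.10% of all regions.

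In pus1Δ against WT in aTC all 38 calls were lost without pus1Δ aTC replicate 1. Of the 17 factors followed singly in this contrast, NOG1 and SSF2 were not called with all libraries. Each of the others lost the call in at least 1 fit with a library left out. The lowest count of a factor in a library was 945 reads, and the common biological coefficient of variation was 5.44%.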

Other observations

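Outside the 59 factors, the 5 tested genes whose profile over the 8 libraries was most like the standardised mean of the 59 were DIP2, PUS7, RIO1, MTR4 and RPC34, with Pearson correlations of 0.998, 0.996, 0.994, 0.993 and 0.991. These are descriptions over 8 libraries that all genes share. DIP2 is a protein of the small subunit processome, RIO1 a kinase of small subunit maturation, MTR4 a helicase of the nuclear exosome and RPC34 a subunit of RNA polymerase III. PUS7 is, like PUS1, a pseudouridine synthase. PUS7 had 218 and 219.7 CPM in pus1Δ aTC, 238 and 236 in pus1Δ DMSO, 271 and 239 in WT aTC, and 264 and 245 in WT DMSO. Its pus1Δ aTC libraries were the lowest of the 8, and WT aTC replicate 2 lay next to the pus1Δ DMSO libraries.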
